A study of Rattus norvegicus with 20 samples.

Results

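The genes described here encode subunits of voltage-gated calcium channels: Cacna2d1, which makes the alpha2delta-1 protein, the pore-forming subunit genes Cacna1a, Cacna1b, Cacna1c and Cacna1d, and the beta subunit genes Cacnb1, Cacnb2, Cacnb3 and Cacnb4. Members were the probe sets that the platform's probe table assigns to 1 of these 9 genes and to no other gene, and all 9 genes had at least 1. They made up 20 of the 8740 probe sets tested, with 1 for Cacna2d1, 14 for the 4 pore-forming genes and 5 for the 4 beta genes. RNA came from rat dorsal root ganglia, the clusters of sensory neuron cell bodies beside the spinal cord, taken on the operated side, and each of 20 preparations was read on 1 Affymetrix rat array.

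The surgeries were chronic constriction injury (CCI), in which the sciatic nerve is tied loosely, the Seltzer model, a partial injury that the labels call a transection of the sciatic nerve, and a sham operation. After CCI there were 3 arrays from day 14 and 3 from day 21. After the Seltzer injury there were 2 from day 14, 3 from day 21 and 2 from day 50, and sham surgery had the same numbers on the same days. The sources used here do not give the strain, sex and age of the rats, the spinal level of the ganglia or how many animals went into an array. Nor do they say that arrays of 1 group stem from different animals, and the p-values therefore cover only array-to-array spread, which may be technical.

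A voltage-gated calcium channel opens when the membrane depolarises and lets calcium into the cell. Its alpha1 subunit forms the pore and sets the current type, while a beta subunit inside the cell and an alpha2delta subunit outside it help bring the channel to the surface. N-type and P/Q-type channels sit in the central terminals of sensory neurons, where their calcium triggers transmitter release. Alpha2delta-1 is the protein to which gabapentin and pregabalin, drugs given for neuropathic pain, bind.

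Values are intensities as deposited, on a linear scale and in arbitrary units, so a value of 1 gene cannot be set against that of another. The sizes of an array's negative values show how far noise reaches, and their 95th percentile served as that array's background level. It was 599 and 766 for the Seltzer 50-day pair and 499 for replicate 1 of CCI at 21 days, with the other 17 arrays at 169 to 326. The GAPDH control ratio of 3' end to middle signal, which grows as RNA is degraded, was 0.998 to 2.04 on the 16 arrays from 14 and 21 days, 2.84 and 2.85 on the sham 50-day arrays, and 5.10 and 8.89 on the Seltzer 50-day arrays. Changes are differences of log2 values, in which negative intensities were set to 0 and 16 was added, with the standard error (SE) of a limma fit over all 8 groups. P-values are two-sided and adjusted over the 8740 probe sets by Benjamini-Hochberg, and 0.05 was the threshold. The tissue's own markers were present: 10 of 12 sensory neuron genes listed were measured, and each was above background on some arrays.

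Cacna2d1 was the only one of the 9 genes that was higher after nerve injury than after sham surgery at 14 and 21 days by this test. The rise was 5.89-fold at 14 days and 3.13-fold at 21 days after CCI, and 3.08-fold and 1.77-fold after the Seltzer injury. CCI against Seltzer passed at 14 days (limma adjusted p = 0.00889) and not at 21 days (0.0505). The Seltzer call at 21 days ended in 21 of 32 alternative settings, and the 14-day call of CCI against Seltzer in 4 of 32. No probe set of a pore-forming or beta subunit passed against sham at 14 or 21 days. Of these 19 probe sets, however, 16 were above background on no array, so a change in them was not detectable. Of all probe sets, 2.78% and 0.927% passed after CCI at 14 and 21 days, and 0.206% and 0.378% after the Seltzer injury. The sham level of Cacna2d1 was itself not constant: it was 2.09-fold higher at 21 than at 14 days and 3.12-fold lower at 50 than at 21 days.

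On the CCI arrays Cacna2d1 read 3439, 3208 and 4012 at 14 days and 3096, 4409 and 4415 at 21 days. The sham arrays read 573 and 629 at 14 days, 1497, 1139 and 1154 at 21 days, and 390 and 413 at 50 days. On the Seltzer arrays it read 1979 and 1730 at 14 days, 2492, 2128 and 2065 at 21 days, and 361 and 371 at 50 days. Every CCI array was thus above every Seltzer array, and every Seltzer array of 14 and 21 days was above every sham array. Cacna2d1 exceeded the background level on 18 of 20 arrays, the exceptions being the Seltzer 50-day pair, for which the readings give only that the gene was not above background.

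**Figure D1:**
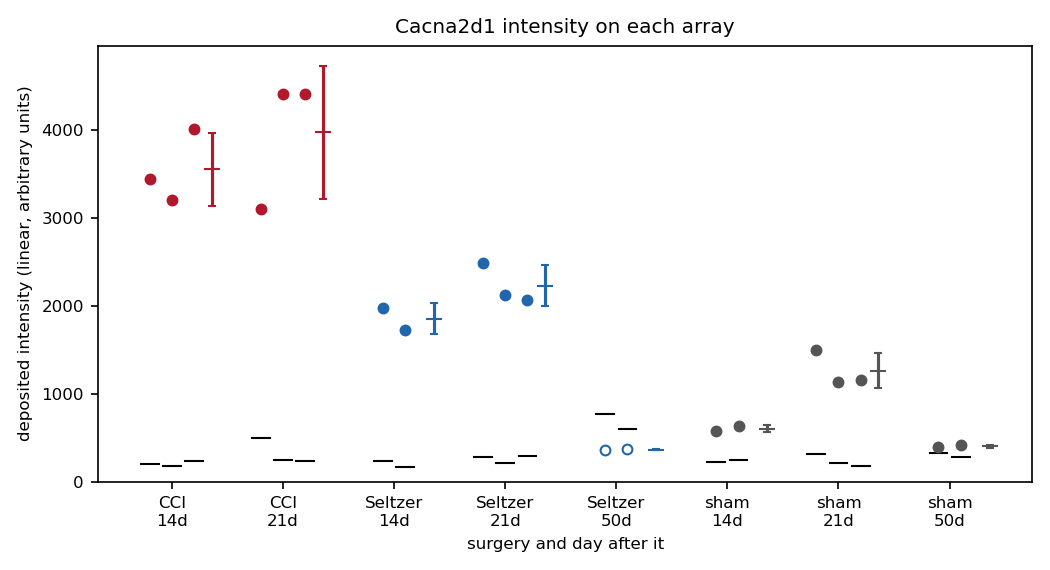
Deposited intensity of Cacna2d1 (linear, arbitrary units) on each array, by surgery and day. Filled points lie above and open points below that array's background level, which a black dash marks, and the crossed bars give mean ± SD; the 6 CCI arrays sit between 3096 and 4415 and the 7 sham arrays between 390 and 1497.

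As means ± SD, the groups in descending order were CCI at 21 days (3974 ± 760, n = 3), CCI at 14 days (3553 ± 414, n = 3), Seltzer at 21 days (2229 ± 231, n = 3), Seltzer at 14 days (1855 ± 176, n = 2), sham at 21 days (1263 ± 203, n = 3), sham at 14 days (601 ± 39.7, n = 2), sham at 50 days (401.3 ± 16.5, n = 2) and Seltzer at 50 days (366 ± 6.88, n = 2). Of the 7 pairs of neighbours in this order, sham at 21 against sham at 14 days alone passed the test (adjusted p = 0.00292). The 2 CCI groups differed by 0.15 on the log2 scale (95% confidence interval -0.17 to 0.47) and overlapped. CCI at 14 and Seltzer at 21 days differed by 0.67 (0.35 to 0.99, adjusted p = 0.0965), and the 2 earlier Seltzer groups by 0.26 (-0.09 to 0.62, adjusted p = 0.603). Seltzer at 14 and sham at 21 days differed by 0.56 (0.20 to 0.91, adjusted p = 0.103), and sham at 14 and 50 days by 0.56 (0.17 to 0.95, adjusted p = 0.0955). A test over all 8 groups passed for Cacna2d1 (limma F test, adjusted p = 2.7e-08), for Cacna1b (0.0155) and for Cacnb4 (0.0106), 3 of 20 member probe sets, while 24.2% of all probe sets passed it.

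After CCI the log2 change of Cacna2d1 was 2.53 at 14 days (SE 0.16, adjusted p = 1.15e-06) and 1.63 at 21 days (SE 0.15, adjusted p = 8.06e-05), with 3 of 3 CCI arrays above sham at each time. Of all probe sets, 41.4% at 14 days and 14.2% at 21 days did not overlap between these groups. Cacna2d1 was the sole member called among 20 at 14 days, where 2.78% of all probe sets were called, and again at 21 days, where 0.927% were. With only the CCI and sham arrays in the fit, the 21-day call ended (adjusted p = 0.127), where 13 of all 8740 probe sets were called. The 21-day change minus the 14-day change was -0.89 (SE 0.22), which did not pass (adjusted p = 0.0676, with 1.8% of all probe sets called). With only the 14-day CCI and sham arrays in the fit, 3 members were called, namely Cacna2d1 and Cacnb1 as higher and Cacna1b as lower. That fit called 514 of all 8740 probe sets, and Cacnb1 was above background on no array. With the 21-day sham arrays as control of the 14-day CCI arrays the change was 1.49 in place of 2.53 and still passed (adjusted p = 0.00024).

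After the Seltzer injury the change was 1.60 at 14 days (SE 0.18, adjusted p = 0.00179) and 0.82 at 21 days (SE 0.15, adjusted p = 0.0343). The arrays of the 2 groups did not overlap at either time, as for 35.6% of all probe sets at 14 days and about 10% at 21 days. Cacna2d1 was again the sole member called, against 0.206% of all probe sets called at 14 days and 0.378% at 21 days. The 14-day call was lost against the 21-day sham arrays (0.56, adjusted p = 0.103), with arrays centred on their medians (adjusted p = 0.0744) and with only the groups compared (adjusted p = 0.23). That last setting called 0 of all 8740 probe sets at 14 days and 0 at 21 days. The call at 21 days was lost on leaving out any of 14 of the 20 arrays, while the change stayed between 0.74 and 0.94. The 21-day change minus the 14-day change was -0.78 (SE 0.23, adjusted p = 0.59, with 0.149% of all probe sets called).

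Same-numbered Seltzer and sham arrays of 21 days deviated together from their group means (r = 0.299, 0.226 and 0.110). Differently numbered arrays were not compared, so a pairing by number is not shown. Seltzer over sham was 1.66 for the pair numbered 1, 1.87 for the pair numbered 2 and 1.79 for the pair numbered 3. The Seltzer array was the higher one in all 3 pairs, and with the replicate block the change was 0.82 (adjusted p = 0.0799). Replicate 1 of each group had the highest Cacna2d1 reading of its group.

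At 50 days Cacna2d1 did not pass between Seltzer and sham (-0.13, SE 0.18, 95% confidence interval -0.52 to 0.26, adjusted p = 0.78). Of all probe sets 15.9% were called in this comparison. The Seltzer readings of 361 and 371 lay below the background levels of their arrays, so no fold is given. Under quantile normalization the change was -0.54 and passed (adjusted p = 0.00724). The Seltzer effect at 50 days was lower than that at 21 days by 0.95 on the log2 scale (SE 0.23, adjusted p = 0.0263), where 7.41% of all probe sets were called.

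Between the 2 injuries, Cacna2d1 was 1.91-fold higher after CCI than after Seltzer at 14 days (0.93, SE 0.16, adjusted p = 0.00889). No array of the one group reached the other, as for 39.6% of all probe sets. Cacna2d1 was the sole member called among 20, and 1.75% of all probe sets were called. Without Seltzer 14-day replicate 2 the change was 0.83 and the call ended (adjusted p = 0.126), as it did with arrays centred on their medians (adjusted p = 0.144), with the dimmest probe sets left out (0.071) and with only the groups compared (0.0601). At 21 days the ratio was 1.77 (0.82, SE 0.15) and did not pass (adjusted p = 0.0505), where 0.114% of all probe sets were called. It passed without CCI 21-day replicate 1, the lowest CCI array for this gene and one with a raised background level (0.99, adjusted p = 0.00617), and without sham 21-day replicate 1 (0.82, adjusted p = 0.0312).

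In sham ganglia Cacna2d1 rose by 1.04 from 14 to 21 days (SE 0.16, adjusted p = 0.00292) and fell by 1.61 from 21 to 50 days (SE 0.16, adjusted p = 6.58e-05). The first of these calls ended with arrays centred on their medians (1.12, adjusted p = 0.0666) and with only the groups compared (adjusted p = 0.147). No other member passed between sham groups, where 2.57% and 7.46% of all probe sets did. From 14 to 21 days Cacna2d1 did not pass within CCI (0.15, adjusted p = 0.853) or within Seltzer (0.26, adjusted p = 0.603), and no other member did, where 0.366% and 2.39% of all probe sets passed. From 21 to 50 days after Seltzer surgery it was lower by at least 3.28-fold (-2.55, SE 0.16, adjusted p = 2.55e-07), where 27.4% of all probe sets passed. The low readings at 50 days in both surgeries were on the 4 arrays with the highest GAPDH ratios. The actin ratio of 3' to 5' signal was 3.94 and 9.88 on the Seltzer 50-day arrays, but 2.35 and 1.66 on the sham 50-day arrays, within the 1.11 to 2.40 of the arrays from 14 and 21 days. The part of RNA quality in the low readings was not tested.

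Of the 19 other probe sets, 16 never exceeded background on any array, or 80% of the 20 members against 67.8% of all probe sets tested. The 3 that did were 1 each of Cacna1b, Cacna1c and Cacnb3, above background on 12, 11 and 13 arrays. For the other 5 genes the arrays give only that signal was not above background, so whether their mRNA changed was not detectable.

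Cacna1b, which forms the N-type pore and is the target of ziconotide, is the pore-forming gene best measured here. It read 271, 250 and 260 on the CCI arrays at 14 days and 373, 301 and 249 at 21 days. Sham arrays read 340 and 344 at 14 days, 173, 244 and 156 at 21 days, and 255 and 158 at 50 days. Seltzer arrays read 366 and 320, then 165, 274 and 305, then 624 and 500. CCI lay below sham at 14 days and above it at 21 days, and neither change passed. There was no overlap in either case, as for 41.4% and 14.2% of all probe sets.

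Its log2 change after CCI was -0.38 at 14 days (95% confidence interval -0.94 to 0.19, adjusted p = 0.776) and 0.65 at 21 days (0.14 to 1.15, adjusted p = 0.306). After the Seltzer injury it was 0.00 at 14 days (-0.62 to 0.62) and 0.33 at 21 days (-0.17 to 0.83). The 14-day CCI value depended on the setting: it passed with only the groups compared (adjusted p = 0.0337), and with the 21-day sham arrays as control it was 0.44. The sham level at 21 days differed from that at 14 days by -0.81, which did not pass (adjusted p = 0.164). At 50 days Cacna1b was called higher after Seltzer surgery (1.40, SE 0.28, adjusted p = 0.00543), the sole member of 20, beside the 15.9% of all probe sets called. All 4 readings behind that call lay below their arrays' background levels, so it has no fold, and it ended without sham 50-day replicate 2 (1.08, adjusted p = 0.068). It was also called from 21 to 50 days after Seltzer surgery (1.17, adjusted p = 0.0054), with the 50-day readings again below background. The second Cacna1b probe set ran from -588 to 177 and was never above background.

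Cacna1c, which forms an L-type pore also known from heart and smooth muscle, read 228, 279 and 383 after CCI at 14 days and 612, 156 and 338 at 21 days. Sham arrays read 333 and 253, then 186, 191 and 219, then 283 and 144 at 14, 21 and 50 days. Seltzer arrays read 212 and 333, then 128, 279 and 296, then 665 and 487. Injured and sham arrays overlapped at 14 and 21 days in both models. The reading of 612 was from CCI 21-day replicate 1, whose background level was 499.

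Cacna1c changed by 0.00 after CCI at 14 days (95% confidence interval -1.05 to 1.05) and by 0.65 at 21 days (-0.29 to 1.60, adjusted p = 0.532). After the Seltzer injury the differences were -0.12 (-1.27 to 1.03) and 0.15 (-0.79 to 1.09). At 50 days the difference was 1.42 (adjusted p = 0.0915), with all 4 arrays below background. The intervals span a doubling in either direction at 14 days, so changes of that size were not detectable. The 2 other Cacna1c probe sets stayed below background, 1 of them negative on 19 of 20 arrays.

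Cacnb3, a beta subunit that partners N-type channels in neurons, read 187, 204 and 110 after CCI at 14 days and 216, 308 and 324 at 21 days. Sham arrays read 249 and 284, then 481, 231 and 242, then 287 and 332. Seltzer arrays read 300 and 248, then 382, 202 and 363, then 449 and 321. CCI arrays at 14 days were all below both sham arrays, without overlap as for 41.4% of all probe sets, and elsewhere the groups overlapped. Its change after CCI was -0.67 at 14 days (95% confidence interval -1.42 to 0.09, adjusted p = 0.574) and -0.10 at 21 days (-0.78 to 0.57). After the Seltzer injury it was 0.03 at 14 days (-0.79 to 0.86) and 0.02 at 21 days (-0.66 to 0.69). None passed.

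**Figure D2:**
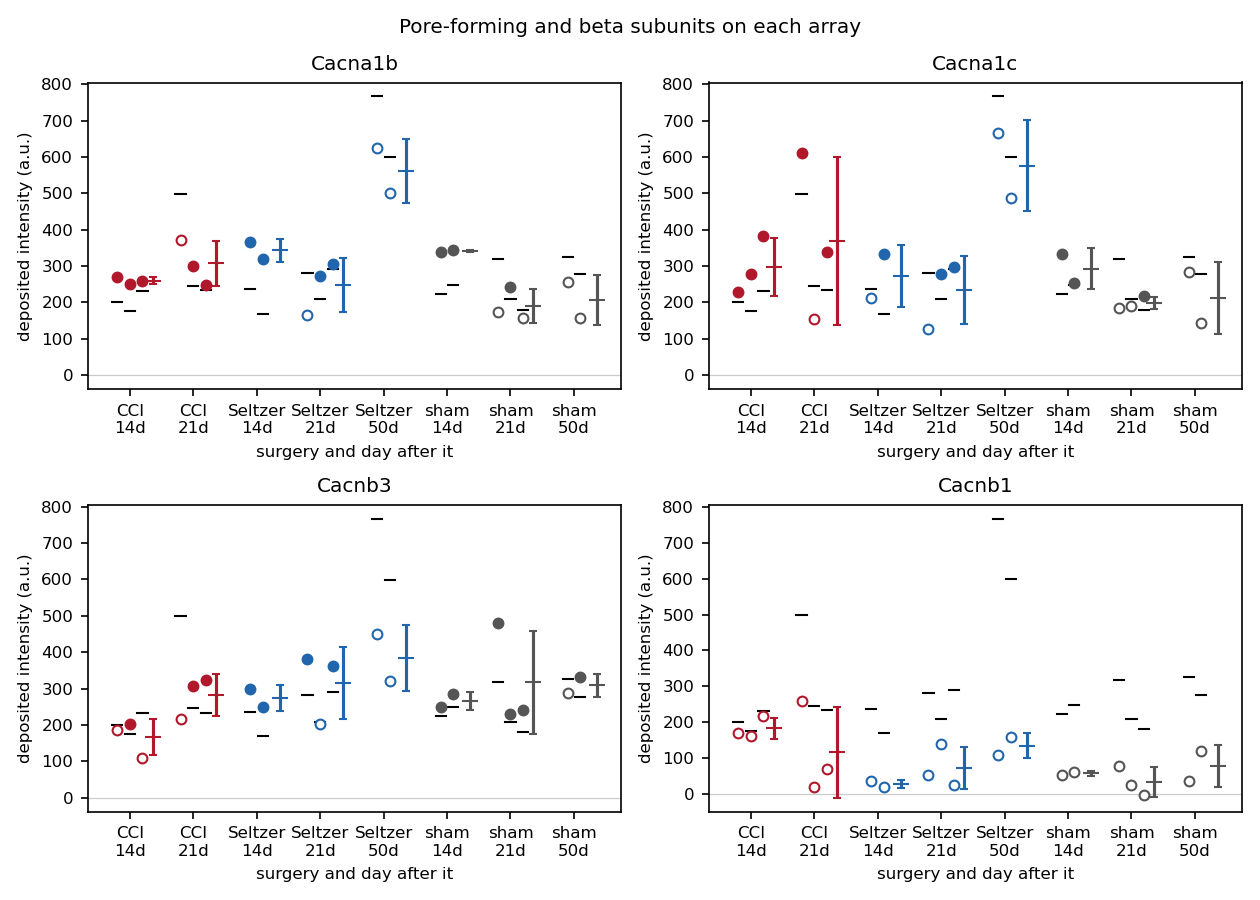
Deposited intensity (arbitrary units) of the leading probe sets of Cacna1b, Cacna1c, Cacnb3 and Cacnb1 on each array, by surgery and day. Filled points lie above and open points below the array's background level (black dash), and crossed bars give mean ± SD; Cacnb1 was above background on 0 of 20 arrays, and no Seltzer 50-day point of any of these genes was.

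The other beta genes were read below background throughout. Cacnb1, the beta subunit of skeletal muscle that is also made in neurons, read 171, 162 and 217 after CCI at 14 days against 53.0 and 62.7 in sham, without overlap, as for 41.4% of all probe sets. Its change of 1.43 did not pass (95% confidence interval -0.41 to 3.26, adjusted p = 0.676), though it did with only the groups compared (adjusted p = 0.0351). After CCI at 21 days it read 260, 19.7 and 70.0. Cacnb2, a beta subunit known from heart, has 2 probe sets, negative on 5 and on 13 arrays. Cacnb4, whose loss causes ataxia in lethargic mice, ran from -121 to 43.3, and its change of 1.37 at 21 days after Seltzer surgery did not pass (adjusted p = 0.0792). It passed in 4 of 31 alternative settings, all on readings below background.

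The remaining pore-forming genes were not above background on any array. Cacna1a, which forms the P/Q-type pore, has 4 probe sets with medians of 56.8, 39.4, 21.3 and -139, the last negative on 20 of 20 arrays. Cacna1d, which forms another L-type pore, has 5 probe sets with medians from -29.0 to 29.9. The leading Cacna1a probe set had changes of 0.29 and -0.21 after CCI at 14 and 21 days, and that of Cacna1d had -0.73 and -1.15 (adjusted p = 0.859 and 0.398). Over the 19 probe sets other than Cacna2d1 the median log2 change was 0 after CCI at 14 days and 0.21 at 21 days, and 0 at both times after Seltzer surgery, beside a median of 0 over all probe sets tested in each case. Zeros arise here because readings at or below 0 in both groups are set level.

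**Figure D3:**
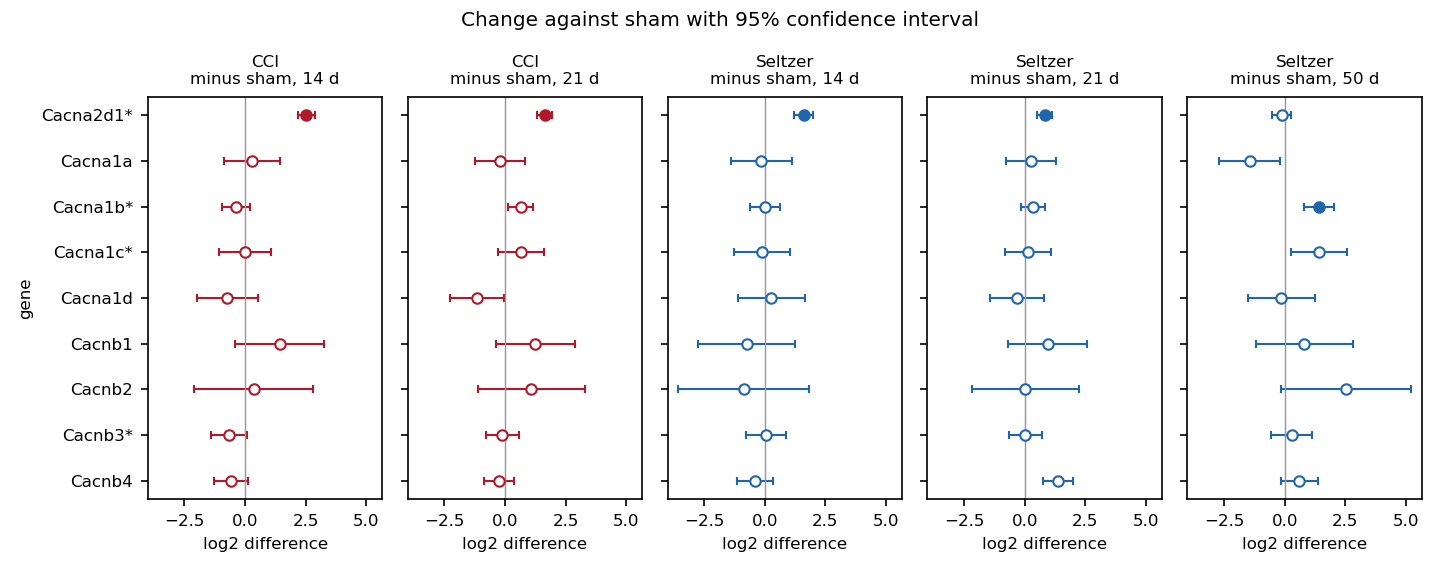
Log2 difference from sham of the same day for the leading probe set of each gene, with its 95% confidence interval; filled points passed the limma test and an asterisk marks genes above background on some arrays. Cacna2d1 stood at 2.53, 1.63, 1.60, 0.82 and -0.13 from the left panel to the right, and Cacna1b at 50 days was the one other filled point.

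Of 17 other calcium channel genes listed, 5 were measured: Cacna1e (R-type pore), Cacna1g and Cacna1h (T-type pores), and Cacna1s and Cacng1 (pore and gamma subunit of the skeletal muscle channel). None passed against sham in any of the 5 comparisons. Cacng1 exceeded background on 4 arrays and the other 4 genes on none. The median change over the 5 was 0 after CCI at 14 days and 0.21 at 21 days, beside 0 and 0.04 over all genes.

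Among 16 measured partners and modulators of these channels, of 30 listed, 1 rose after CCI at 14 days, and 1 rose and 1 fell at 21 days, beside 2.78% and 0.927% of all probe sets called. Of the 16, 8 were never above background. Dpysl2, which encodes the collapsin response mediator protein that binds N-type channels, went from 395 ± 51.4 (n = 2) in sham to 1067 ± 126 (n = 3) after CCI at 14 days (1.39, adjusted p = 0.00206). Its level at 21 days was 1111 ± 147 after CCI and 1097 ± 177 in sham (n = 3 each), so the 14-day difference lay beside a low sham level, as for Cacna2d1. The t-SNARE gene Stx1a, whose protein binds N-type channels at release sites, rose at 21 days from 231 ± 61.0 to 441 ± 76.9 (n = 3 each, 0.91, adjusted p = 0.0191). Its fellow t-SNARE Snap25 fell at that time from 1344 ± 88.9 to 832 ± 81.6 (n = 3 each, -0.68, adjusted p = 0.0377). None of the 16 passed after the Seltzer injury at 14 or 21 days.

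Among 23 measured calcium pumps, exchangers, stores and calcium-dependent enzymes and buffers, of 26 listed, Camk2d rose after CCI at both times. It was the 1 gene of 23 called at 14 days and 1 of 2 called at 21 days, beside 2.78% and 0.927% of all probe sets called. Of the 23, 12 were never above background. Camk2d encodes a subunit of calcium/calmodulin-dependent kinase II. It went from 551 ± 21.4 (n = 2) to 978 ± 78.6 (n = 3) at 14 days (0.81, adjusted p = 0.0402) and from 440.5 ± 60.3 to 992 ± 24.9 at 21 days (n = 3 each, 1.15, adjusted p = 0.00373). The calcium buffer gene Pvalb fell at 21 days from 543 ± 21.4 to 247 ± 107 (n = 3 each, -1.19, adjusted p = 0.0349). Pvalb is also abundant in fast skeletal muscle, whose 10 measured markers summed to 5031 to 5700 in sham and 1417 to 2363 after CCI at that time, with 2 called lower, and their part in the fall of Pvalb was not tested. No other gene of this list passed against sham at 14 or 21 days in either model. The list's median change was -0.11 after CCI at 14 days and 0 at 21 days.

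The summed signal of other gene lists was set beside Cacna2d1. Genes induced by cutting an axon (12 measured, among them Npy, Gal and Atf3) summed to 10334 to 11415 on the CCI arrays, 7104 to 8463 on the Seltzer arrays of 14 and 21 days, 5684 and 6748 on those of 50 days, and 3356 to 3849 on the sham arrays. Cacna2d1 followed the same order of surgeries at 14 and 21 days. At 50 days the Seltzer arrays were above sham for the list and not for Cacna2d1. For Cacna2d1, however, these Seltzer readings lay below their arrays' background levels of 599 and 766. Those levels exceed the sham readings of 390 and 413, so a level above sham but under them was not detectable. Between sham at 14 and 21 days 0 of the 12 genes passed by limma and 1 had an unadjusted p under 0.05, where 2.57% of all probe sets passed, and 4 of the 12 were never above background.

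Markers of other cells moved with some of these groups. Macrophage markers (6 measured) summed to 3733 to 5356 on CCI arrays, 2741 to 4507 on Seltzer arrays of 14 and 21 days, 1680 and 1985 on Seltzer arrays of 50 days, and 1208 to 2367 on sham arrays. Of these 6 genes, 2 and 3 were called higher than in sham after CCI at 14 and 21 days, beside 2.78% and 0.927% of all probe sets called. After the Seltzer injury 0 and 2 were, beside 0.206% and 0.378%. The lowest change in the list was -0.42 and -0.53 after CCI, and -0.47 and -0.48 after Seltzer. Csf1r and Fcgr2b of that list were never above background, and the part of these cells in the Cacna2d1 values was not tested. Satellite glia markers (6 measured, with Kcnj10, Gja1 and Slc1a3 never above background) summed to 3006 and 4527 in sham at 14 days, 26313, 5345 and 5685 at 21 days, and 8330 and 9606 at 50 days. The sum of 26313 was on sham replicate 1, and the Seltzer replicate 1 array of 21 days had 22606, against 5678 and 13624 on the others of its group. Schwann cell markers (4 measured, each above background on some arrays) summed to 7556 and 11263 in sham at 14 days, 12102 to 17491 at 21 days, and 9072 and 9435 at 50 days. Both sums were thus higher in sham at 21 than at 14 days, as Cacna2d1 was, and their part in that rise was not tested. In whole ganglia, fewer cells of a type and less RNA per cell cannot be told apart.

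Skeletal muscle, which also makes alpha2delta-1, was followed with 10 measured markers. They summed to 11498 to 12933 after CCI at 14 days but 1417 to 2363 at 21 days, while Cacna2d1 read 3208 to 4012 and 3096 to 4415 on the same arrays. In sham they summed to 5149 to 6010 at 14 days, 5031 to 5700 at 21 days and 1123 to 1382 at 50 days. Both these sums and Cacna2d1 were thus lower in sham at 50 than at 21 days. On the Seltzer arrays they summed to 7266 and 7579 at 14 days, 3539 to 4180 at 21 days, and 4307 and 5268 at 50 days. The part of muscle in the Cacna2d1 values was not tested. The muscle channel gene Cacna1s was above background on no array. Of 8 smooth and cardiac muscle markers 7 were never above background. Sensory neuron markers summed to 17822 to 28466 at 14 days over the 3 surgeries and 25982 to 60301 at 21 days, and none of the 10 rose against sham at either time. After CCI at 14 days 2 of the 10 fell, where 2.78% of all probe sets were called. At 50 days 5 of the 10 were lower after Seltzer surgery than in sham, with a median change of -0.96. Of all probe sets 15.9% were called in that comparison, and of the 1712 above background on at least 10 arrays 418 were called lower.

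**Figure D4:**
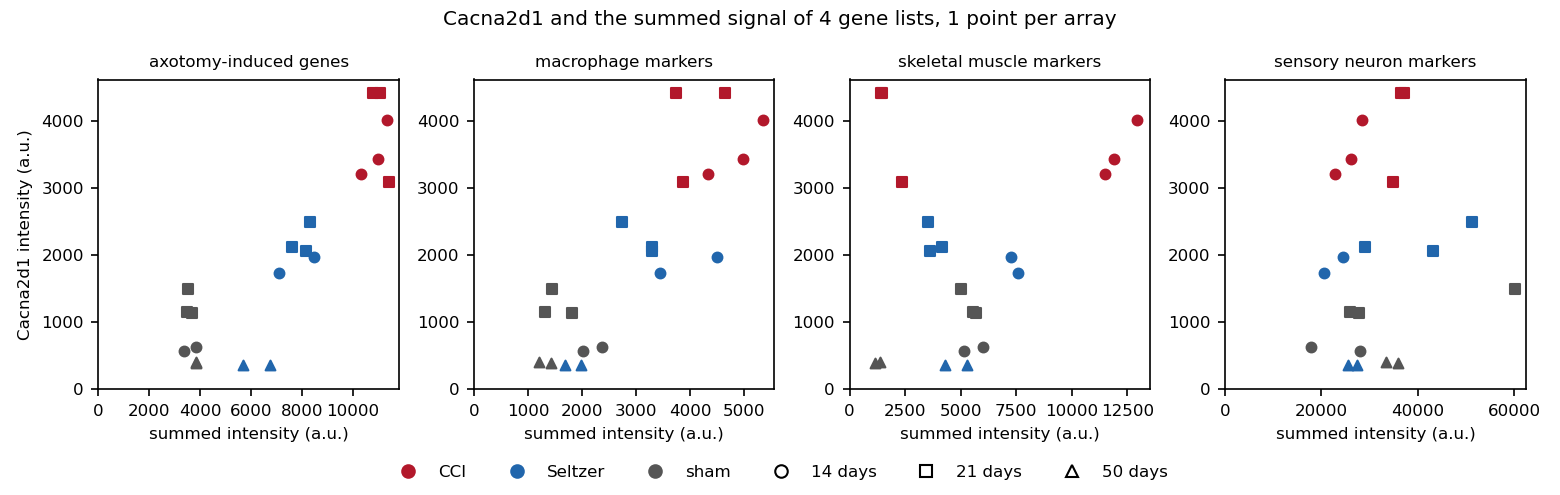
Cacna2d1 intensity against the summed intensity of 4 gene lists, 1 point per array, with colour for surgery and shape for day (arbitrary units on both axes). CCI arrays of 14 and 21 days lie far apart on the muscle axis (11498 to 12933 and 1417 to 2363) and overlap in Cacna2d1. The part of muscle in the Cacna2d1 values was not tested.

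Across the 20 arrays, the probe sets most like Cacna2d1 in their log2 values were those of Rpl26 (Pearson's r = 0.90), Hspb1 (0.86), Anxa2 (0.86), Lyz2 (0.86), Pgk1 (0.84), Rps3 (0.84), Rps3a (0.84) and Foxn3 (0.83). They were picked from 1348 probe sets of 1120 genes above background on at least 10 arrays, and the arrays share their groups, scale and RNA quality, so r is given as a description. Without the Seltzer 50-day pair, 18 arrays, these values ran from 0.77 to 0.86. The most opposite were Drgx (-0.83), Htr3a (-0.82), Reep2 (-0.81) and Tom1l2 (-0.81).

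Rpl26, a ribosomal protein gene, averaged 1056 ± 97.0 (n = 2) in sham at 14 days, 1617 ± 492 (n = 3) at 21 days and 546 ± 1.06 (n = 2) at 50 days. Its means thus shared with Cacna2d1 the order of the sham days. Its sham arrays of 14 and 21 days overlapped, however (987 to 1124 and 1058 to 1983), unlike those of Cacna2d1. The change of Rpl26 after CCI was 1.02 at 14 days (adjusted p = 0.0113) and 0.30 at 21 days (adjusted p = 0.486), where Cacna2d1 had 2.53 and 1.63. Against the other measured subunits r was -0.40 for Cacnb3, -0.24 for Cacna1b and -0.17 for Cacna1c, over the same 20 arrays.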

How the data were processed

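The authors deposited 1 linear intensity per probe set and array, of which 29.0% were below 0. Their software, background step and scaling are not stated in the sources used. Tests left out 59 control probe sets. Symbols are those of the platform's probe table, brought up to date through Entrez IDs (7006 probe sets with 1 symbol, 308 with several, 1426 with none). A gene with several probe sets is led by the one with the highest mean log2 value. No probe sequences were used here.

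Group means were fitted with limma 3.58.1 (lmFit, eBayes) in R 4.3.3 with statmod 1.5.0, with 12 residual degrees of freedom, and the fit was tested on simulated data. Folds are ratios of geometric means of the intensities, or "at least" where the dimmer group was on no array above background. The precision is limited by 2 or 3 arrays a group. Members, lists and tests were chosen with earlier results of these data known. The named partners and kinases are those of their lists that passed, and genes like Cacna2d1 follow a rule on r.

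The labels give some CCI replicate numbers as a lot batch. At 21 days, same-numbered Seltzer and sham arrays deviated together from their group means (r = 0.299, 0.226 and 0.110), whereas for CCI and sham r was 0.0606, 0.0881 and 0.0931. For CCI and Seltzer r was 0.0195, 0.101 and -0.00530 at 21 days, and 0.0535 and 0.153 at 14 days. Alternatives were the number added, a floor at 200, quantile normalization, median centring, a filter on dim probe sets, fewer groups, the replicate block, eBayes with trend, array weights, another control and arrays left out. Leaving out both 21-day replicate 1 arrays of Seltzer and sham was chosen after seeing the data, as were the comparisons between days as results to vary. Plots used matplotlib 3.10.9 under Python 3.11.15.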

Additional observations from a re-analysis of the deposited data

Results flagged for a closer look

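The effect of the Seltzer injury on Cacna2d1 differed between days by its own test: the change against sham at 50 days minus that at 21 days was -0.95 (SE 0.23, limma adjusted p = 0.0263). At 50 days neither Seltzer array was above its background level for this gene, and 7.41% of all probe sets passed the same test. In that test 4 of 10 sensory neuron markers were called lower, with a median of -1.13, and 3 of 10 skeletal muscle markers higher, with a median of 2.07. Their part in the Cacna2d1 value was not tested, and this difference of effects was not re-run under the alternative settings. No group had enough arrays for a check of single outlying arrays.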

How the results depend on the processing

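Cacna2d1 kept its direction in every alternative that was run. The alternatives were not run for the changes from 14 to 21 days within CCI and within Seltzer. They were also not run for the Seltzer effect at 50 minus 21 days. The Cacna2d1 calls for CCI against sham at 14 days (33 settings), sham at 50 against 21 days (32) and Seltzer at 50 against 21 days (31) held in each. With only the groups compared it was not called for CCI at 21 days (1.63, adjusted p = 0.127), Seltzer at 14 (1.60) and 21 days (0.82, adjusted p = 0.59), CCI against Seltzer at 14 days (0.93) and sham at 21 against 14 days (1.04). Median centring ended the calls for Seltzer at 14 (1.66) and 21 days (0.83), CCI against Seltzer at 14 days (1.00) and sham at 21 against 14 days (1.12). The 21-day sham as control gave 0.56 for Seltzer at 14 days.

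The Seltzer 21-day call also ended with the floor at 200 (0.83), the dimmest probe sets left out (0.82), the replicate block (0.82), without the Seltzer 50-day arrays (0.82) and without the replicate 1 pair (0.86), and with 14 of 20 single arrays left out (0.74 to 0.94). CCI against Seltzer at 14 days was not called with the dimmest probe sets left out (0.93) and ran from 0.83 to 1.02 with single arrays left out. At 21 days it was called under quantile normalization (0.83), eBayes with trend (0.82), array weights (1.00) and without the replicate 1 pair (0.90), with 0.73 to 0.99 over single arrays. Quantile normalization brought calls for Seltzer at 50 days (-0.54) and for the change of effect from 14 to 21 days in CCI (-1.05) and Seltzer (-0.93), and array weights for that in CCI (-0.60). The replicate block changed no other call of Cacna2d1.

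Of 20 member probe sets, the count called was 3 for CCI at 14 days and 0 for CCI at 21 and Seltzer at 14, 21 and 50 days with only the groups compared. Over all 8740 probe sets that setting called 514 for CCI at 14 days and 13 at 21 days. For Seltzer it called 0 at 14 days, 0 at 21 days and 841 at 50 days. The member count was 0 for Seltzer at 14 days with centring (5 of all probe sets called) or the 21-day sham (269). It was 0 for Seltzer at 21 days with the floor, centring, the filter, the replicate block, and without the 50-day or replicate 1 arrays, where 9 to 27 of all probe sets were called. Quantile normalization gave 2 at 21 and 2 at 50 days. With single arrays left out it ran from 0 to 1 at 21 days and 0 to 3 at 50 days after Seltzer surgery. Over all probe sets, calls were counted only in the settings other than single arrays left out. They ran from 58 to 784 for CCI at 14 days (243 in the text's fit) and 13 to 136 at 21 days (81). For Seltzer they ran from 0 to 269 at 14 days (18), 0 to 51 at 21 days (33) and 841 to 1798 at 50 days (1391). The 58 and the 269 came with the 21-day sham as control. The cause of these shifts was not tested, beyond the smaller sets of arrays and probe sets that some settings hold. Signal over background limits 16 of the 20 members, which no array measured.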
